A study of Mus musculus with 9 samples.

Results

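The comparison described here is 4T1 cells cultured with the copper material Cu-TCPP(Fe)-PEG (Cu_TCPP) against 4T1 cells cultured with medium alone (Control), read across transcription factors, receptors, ligands, secreted proteins, transporters, channels, signalling proteins and adhesion proteins. Members were chosen by their labels: the 3 libraries whose intervention is Cu_TCPP and the 3 whose intervention is Control, which are 6 of the 9 libraries of the study. 4T1 is a mouse mammary carcinoma line. Both groups grew in high glucose DMEM with fetal bovine serum and penicillin/streptomycin, and the treatment lasted 24 h. The labels give Control as cells in normal culture and Cu_TCPP as cells with consumed glutathione (GSH), the main small thiol antioxidant of cells. The sources used here do not state the dose. Polyadenylated RNA of bulk cells was sequenced, so fewer cells of a kind and less RNA per cell cannot be told apart. The labels do not state whether replicates were grown separately, and p-values then reflect only the variation among these 6 libraries, which may be technical.

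Gene regulatory proteins, surface receptors and secreted factors decide which signals a cell sends and reads, and transporters set what crosses its membranes. Metal carriers of the ZNT and ZIP families move zinc out of and into the cytosol, and their genes, like those of metallothioneins, are known to follow the metal supply of the cell. The plasmin system links secreted proteases, their inhibitors and cell surface receptors, and is well known from the study of mammary tumour invasion.

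Total counts per library lay between 16108691 and 16638173 in Control and between 16225399 and 17494776 in Cu_TCPP. The deposited table lists 54532 genes. After a filter on low counts 13576 were tested, and 7381 of them (54.4%) passed an adjusted p of 0.05 in edgeR's quasi-likelihood test with Benjamini-Hochberg adjustment; such genes are said to rise or fall below. Among all genes tested 3720 rose (27.4%) and 3661 fell (27%), while 1154 changed by at least 1 log2 unit (8.5%), of which 223 rose (1.64% of all tested) and 931 fell (6.86%). The libraries of the groups did not overlap for 8185 genes, or 60.3%. The rule that named the largest changes of each list, given with the processing, required such a lack of overlap. Where the lack of overlap is stated for those genes below, it therefore describes them and adds no support. Epithelial markers were present at a summed level of 3210 to 3520 CPM (read counts scaled to the effective size of the library) in Control and 3153 to 3502 CPM in Cu_TCPP. Of 10 such markers 7 were tested, of which 1 rose and 5 fell. Krt8, a keratin, rose with a log2 change of 0.45, and Cldn4, a tight junction claudin, had 20.3, 19.2 and 21.7 CPM in Control and 6.51, 8.56 and 6.25 CPM in Cu_TCPP and fell. Markers that define other cell types were at 0 in all 6 libraries for Adgre1 and Tyrobp of macrophages, Cd3d, Ms4a1 and Gzmb of lymphocytes, Col3a1, Pdgfrb, Dcn, Lum and Thy1 of fibroblasts, and Kdr, Cldn5, Erg, Emcn and Esam of endothelium. The only endothelial marker tested, Eng, had 44.7, 50 and 47.3 CPM in Control and 38.9, 40 and 40.7 CPM in Cu_TCPP and fell (adjusted p = 0.0069). The only lymphocyte marker tested, Lck, lay between 0.757 and 1.93 CPM in all 6 libraries and did not pass (adjusted p = 0.24). Means are given ± SD over 3 libraries, log2 fold changes of Cu_TCPP against Control ± SE, and adjusted p-values are from edgeR's quasi-likelihood test. Whether the counting used strand is not stated in the sources used here. Exons of E2f8, Elf3, Hif1a, Hoxa3, Igfbp7, Ltbp2, Slc44a3 and Slc7a7 overlap a gene on the opposite strand over 5.6 to 11.2% of their length, so reads of those stretches are of uncertain origin.

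In all 8 classes of regulatory and surface genes, more members fell than rose. Secreted proteins had 33 risen and 88 fallen genes among 166 tested, and receptors 29 and 74 among 158. Genes of ligands and their pathways had 23 risen and 63 fallen among 132, channels 18 and 47 among 100, and adhesion proteins 7 and 36 among 75. Transcription factors, with 81 risen and 117 fallen of 299, signalling proteins, with 46 and 82 of 222, and transporters, with 86 and 97 of 297, were more evenly divided. These shares stand against 27.4% risen and 27% fallen among all genes tested, and so do the counts of the lists below.

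The level of a gene moved with its direction. Of the 3394 genes with the lowest mean levels, 0.435 to 5.73 CPM, 6.81% rose and 25.6% fell, and of the 3394 with the highest, from 73.6 CPM up, 42.6% rose and 22.8% fell. Among the 6788 genes on the upper side of the median level, where 38.9% of all genes rose and 25.0% fell, 31.9% of 72 secreted protein genes rose and 50% fell. Adhesion genes on that side had 17.1% risen and 51.4% fallen among 35, channels 26.7% and 46.7% among 45, ligand pathway genes 17.2% and 43.8% among 64, and receptors 25.4% and 43.3% among 67. Transcription factors on that side had 36.2% risen and 32.5% fallen among 160, and transporters 37.6% and 29.9% among 157. Both classes lay nearer to the share of all genes there. Signalling genes had 29.69% risen and 32.03% fallen among 128. Below the median level, 15.87% of all genes rose and 28.96% fell. On this lower side 46.76% of 139 transcription factors, 43.62% of 94 signalling genes and 35.71% of 140 transporters fell. Their risen shares were 16.55%, 8.51% and 19.29%. The fallen shares of the other classes ran from 45% (adhesion) to 55.32% (secreted proteins). What part the level has in these shares was not tested.

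**Figure D1:**
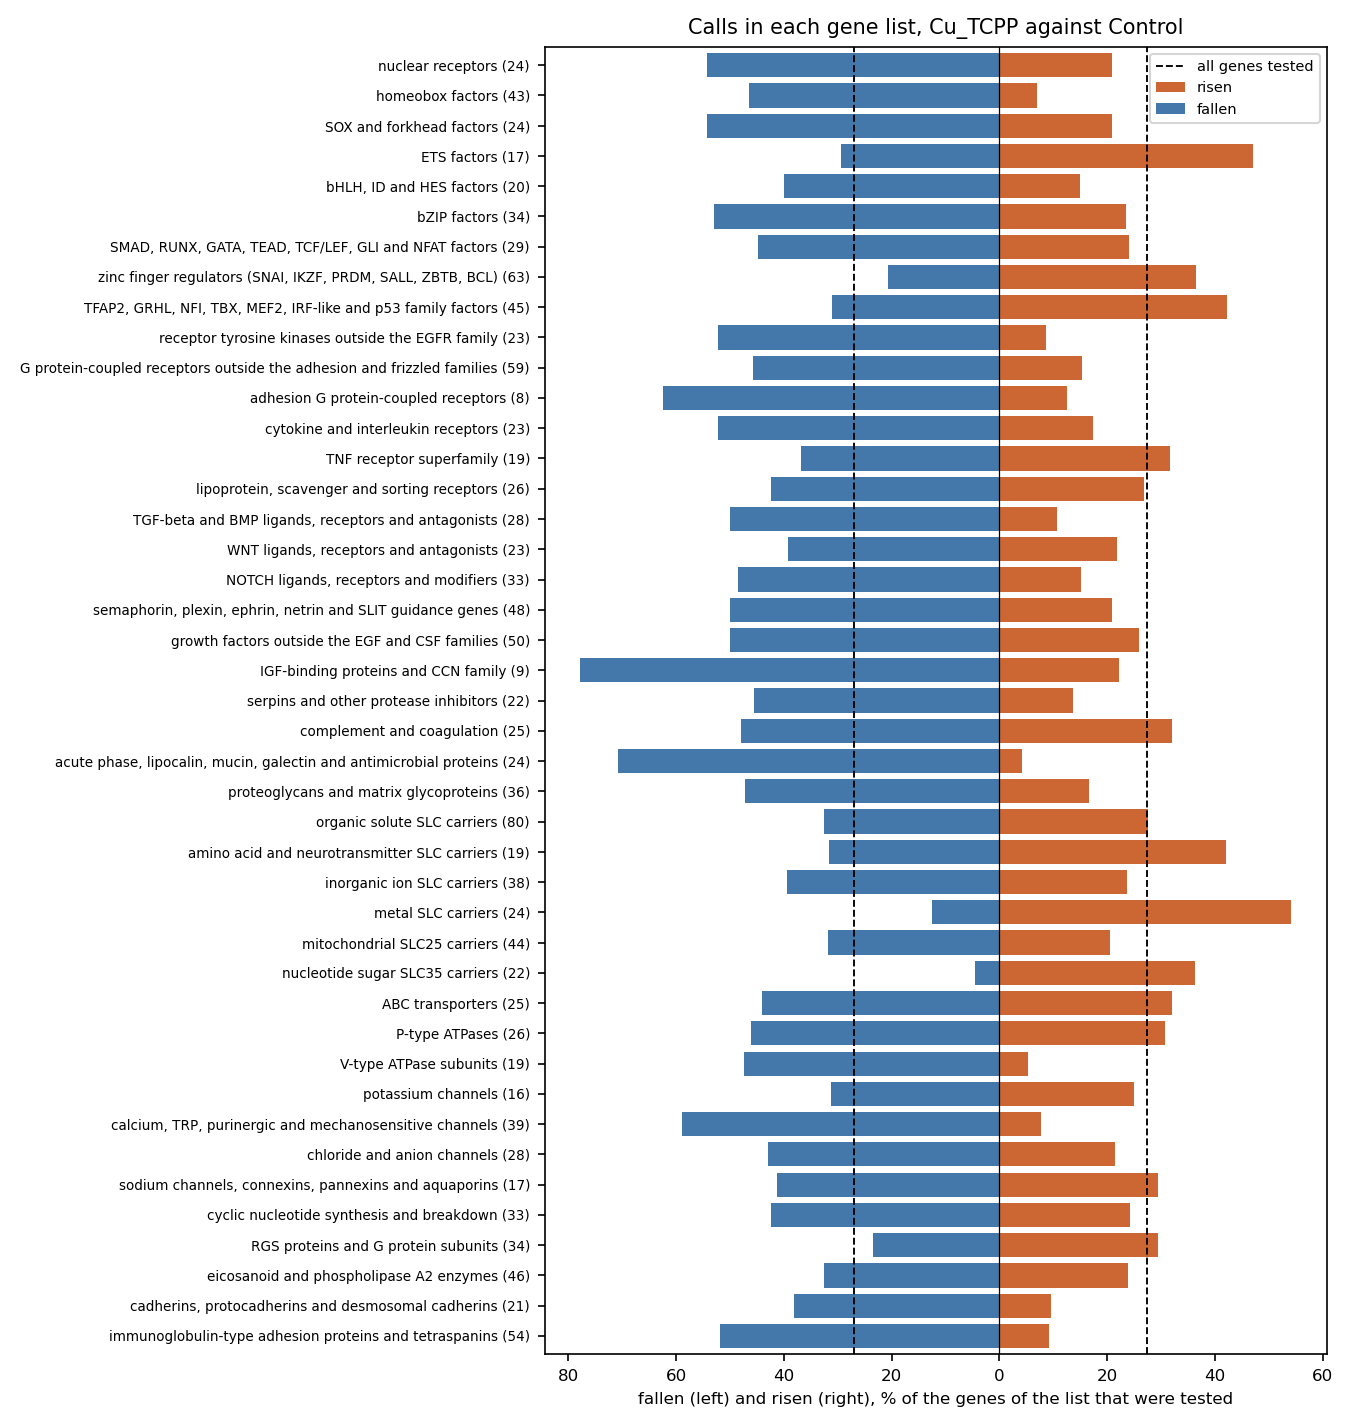
Share of the tested genes of each of 43 of the 44 gene lists that fell (bars to the left) or rose (bars to the right) with Cu_TCPP, in percent, with the number tested in brackets and dashed lines at 27% fallen and 27.4% risen for all genes tested. Metal SLC carriers extend farthest to the right, at 54.2% risen, and the IGF-binding proteins and CCN family farthest to the left, at 77.8% fallen.

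**Figure D2:**
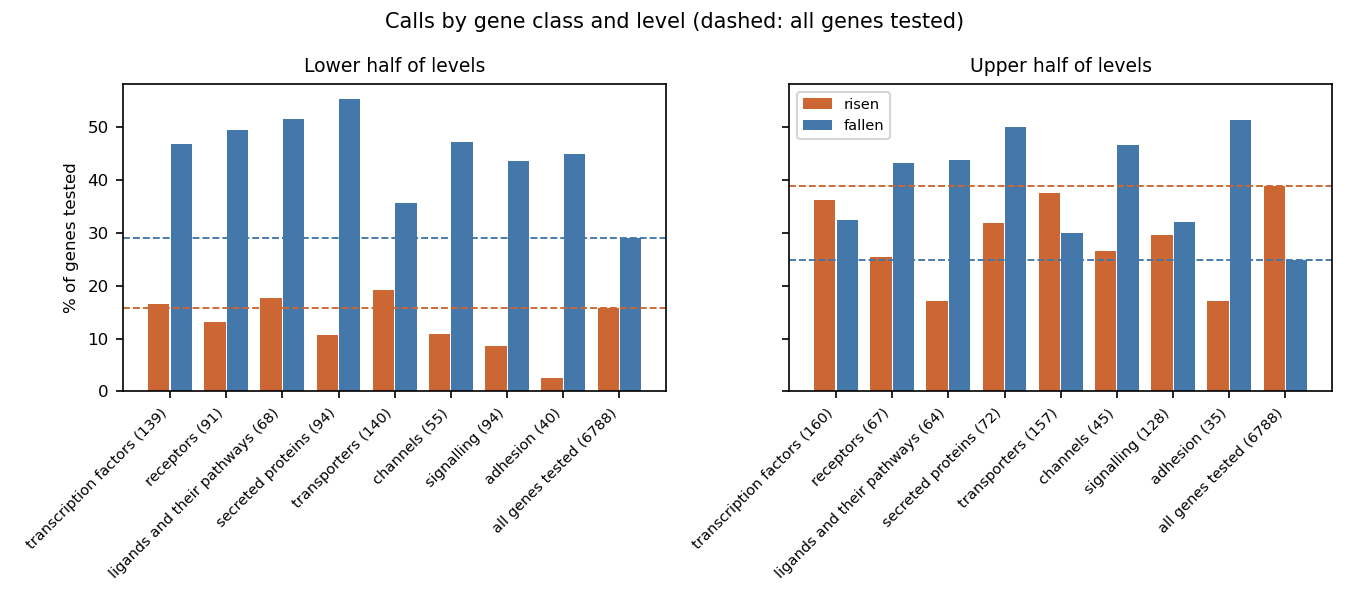
Percent of the tested genes of each class that rose or fell, for genes below and above the median of mean levels (left and right panels), with the number tested in brackets and dashed lines for all genes tested. Above the median, fallen genes exceed the 25.0% of all genes by the widest margin in adhesion (51.4%) and secreted proteins (50%).

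Among transcription factors, nuclear receptors had 5 risen and 13 fallen members of 24 tested. Nr1d1 (ENSMUSG00000020889, chr11:98767932-98775333), the REV-ERB alpha repressor of the circadian clock, had 38.5, 37.1 and 35.9 CPM in Control and 90.7, 101 and 109.4 CPM in Cu_TCPP. It rose in every Cu_TCPP library above every Control library, by 1.43 ± 0.07 on the log2 scale (adjusted p = 8.2e-10). Its exons overlap those of Thra on the other strand over 8.55% of their length, and there reads of both genes cannot be told apart. Thra fell from 85.4 ± 6.37 to 68.8 ± 9.2 CPM. Nr1d2, the relative of Nr1d1, had 51.6 ± 2.27 CPM in Control and 53.9 ± 3.53 CPM in Cu_TCPP and did not pass the test (adjusted p = 0.47). Of the steroid receptors, Esr1, the estrogen receptor alpha, fell from 11.2 ± 1.41 to 5.83 ± 1.12 CPM, Nr3c1, the glucocorticoid receptor, from 119 ± 5.66 to 83.8 ± 5.55 CPM, and Nr3c2, the mineralocorticoid receptor, also fell (log2 change -1.12 ± 0.22). Vdr, the vitamin D receptor, and Nr2f1, an orphan receptor of the COUP family, fell (log2 changes -0.87 and -0.84). Ppard, a lipid-sensing receptor, rose from 86.1 ± 0.616 to 128 ± 11.6 CPM (adjusted p = 3.4e-06), and Nr2f2 by 0.59 ± 0.11.

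The authors' deposited family labels put 10 tested genes in the E2F family of cell cycle regulators, of which 7 rose and 1 fell. E2f4, a member best known for repressing cell cycle genes in resting cells, had 78.2, 86.6 and 82.4 CPM in Control and 150.9, 176 and 152 CPM in Cu_TCPP and rose by 0.95 ± 0.07 (adjusted p = 2.4e-08). The atypical repressor E2f7 rose from 52.5 ± 4.0 to 87.5 ± 4.09 CPM, and its relative E2f8 from 67.7 ± 1.68 to 120.2 ± 3.54 CPM. The DNA-binding partners of E2F went opposite ways. Tfdp1 had 156, 157 and 156 CPM in Control and 255, 245 and 246 CPM in Cu_TCPP, and Tfdp2 had 82, 82.6 and 76.8 CPM in the Control libraries against 38.8, 34.1 and 37.6 CPM with the material. Tfdp1 rose by 0.67 ± 0.05 and Tfdp2 fell by 1.13 log2 units (SE 0.07), with adjusted p of 3.9e-08 and 4e-09 and no overlap between the groups for either gene. Mybl2, which activates late cell cycle genes, rose from 99.1 ± 2.02 to 155 ± 7.24 CPM. Foxm1, which works with it, had 219 ± 8.42 CPM in Control and 243 ± 10.1 CPM in Cu_TCPP and an adjusted p of 0.025 that was 0.088 without Control replicate 1, 0.1 without Control replicate 3, 0.14 with library totals alone and 0.35 in the fit of all 9 libraries.

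Tead4 (ENSMUSG00000030353, chr6:128224288-128300823), a DNA-binding partner of the YAP and TAZ coactivators of the Hippo pathway, had 42.5, 38.1 and 41.7 CPM in Control and 88.3, 90.1 and 85.8 CPM in Cu_TCPP. All 3 treated libraries were above all 3 Control libraries, and the gene rose by 1.11 ± 0.06 (adjusted p = 2.6e-09). Tead3 fell (log2 change -0.66). Srf, the serum response factor that drives actin and immediate early genes, rose from 50.5 ± 1.53 to 82.4 ± 7.65 CPM (adjusted p = 8.5e-07), and Cbfb, the shared partner of the RUNX factors, from 110.1 ± 2.47 to 170.4 ± 5.26 CPM (adjusted p = 1.4e-07). The list that holds SMAD, RUNX, GATA, TEAD, TCF/LEF, GLI and NFAT factors had 7 risen and 13 fallen genes of 29, so the named risen genes were the fewer. Nfat5, the regulator of the response to high salt, fell from 281 ± 20.7 to 217 ± 19.2 CPM, and Smad6, an inhibitor of BMP signals, also fell (log2 change -0.72).

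Among ETS factors, Ehf (ENSMUSG00000012350, chr2:103263433-103303278), which is known from epithelia, had 24.5, 22.7 and 25.1 CPM in Control and 6.32, 5.71 and 5.51 CPM in Cu_TCPP, and fell by 2.04 log2 units with an SE of 0.11 (adjusted p = 1.1e-09). Its epithelial relative Elf3 fell from 35.3 ± 3.6 to 17.6 ± 2.2 CPM, and Etv1, an ETS factor of the PEA3 group, from 104 ± 2.97 to 52.6 ± 7.0 CPM, while the related Etv4 had 76.7 ± 5.93 CPM in Control and 69.9 ± 3.46 CPM in Cu_TCPP and did not pass (adjusted p = 0.11, and 0.028 both with library totals alone and without Cu_TCPP replicate 2). Ets1 rose from 155 ± 4.26 to 202 ± 3.22 CPM and Erf, a repressor of the family, by 0.37 ± 0.11. The ETS list had 8 risen and 5 fallen genes of 17, and its risen members stayed at 0.38 log2 units or less. Only 4 rose with library totals in place of the TMM factors, so that its majority turned. Sox4, a factor of progenitor cells, fell from 81.7 ± 2.64 to 42 ± 4.0 CPM (adjusted p = 4.2e-08). Of 8 tested HOXA genes, which pattern the body axis, 6 fell and 0 rose. Hoxa5 had 56, 56.9 and 61.4 CPM in Control and 28.4, 31 and 28.4 CPM in Cu_TCPP, Hoxa7 fell (log2 change -0.82), Hoxa3 (log2 change -0.83) and Hoxa2 (log2 change -0.79). The exons of Hoxa7 overlap an antisense gene over 20.4% of their length, so its value is uncertain.

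The basic leucine zipper (bZIP) list had 8 risen and 18 fallen genes of 34, with no rise above 0.61 log2 units. By the authors' deposited family labels 39 tested genes are bZIP factors, of which 10 rose and 19 fell. Of these, 2 rose by at least 1 log2 unit, the highest by 2.29, and they are outside the list used here. Genes entered that list by their symbols. Cebpz, its highest riser and the source of the 0.61, has no family in the deposited labels, and its symbol does not show that it is a bZIP factor. Cebpd has no family there either. Cebpd, the inducible C/EBP delta of the acute phase response, had 34.2, 31.5 and 36.9 CPM in Control and 10.1, 12.6 and 10.6 CPM in Cu_TCPP and fell by 1.62 log2 units (SE 0.10, adjusted p = 6.5e-09); 15% of its exons overlap Spidr. Crebl2, a small CREB-like protein, fell from 35.5 ± 1.69 to 11.9 ± 0.85 CPM (adjusted p = 2.6e-09). Atf4, which drives amino acid synthesis and transport genes under stress, rose from 371 ± 6.64 to 494 ± 6.84 CPM, while Atf5 fell from 64 ± 2.76 to 28.5 ± 2.71 CPM. Transcripts of Nfe2l2, which encodes NRF2, the factor of the antioxidant response, had 134.1, 136 and 125 CPM in Control and 84.1, 71.8 and 81.6 CPM in Cu_TCPP. They fell by 0.73 log2 units (SE 0.07, adjusted p = 2.9e-07), with no overlap between groups; the NRF2 protein, which is set by its breakdown, was not measured. Nfe2l1, a relative that controls proteasome genes, fell (log2 change -0.33), and Mafk, a small partner of both, rose from 29.8 ± 1.3 to 41.8 ± 3.62 CPM. Hif1a had 242 ± 14.6 CPM in Control and 221 ± 24.8 CPM in Cu_TCPP and did not pass (adjusted p = 0.14, and 0.048 with library totals alone and 0.022 without Cu_TCPP replicate 1). Id2, an inhibitor of basic helix-loop-helix factors, fell from 25.6 ± 1.96 to 12.4 ± 1.11 CPM and its relative Id3 rose from 17.6 ± 0.395 to 21.7 ± 1.65 CPM, with an adjusted p of 0.012 that was 0.055 in the fit of all 9 libraries.

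STAT and IRF factors, which carry cytokine and interferon signals to DNA, fell in 5 of 6 and in 4 of 8 genes tested, and none of these 14 rose. Irf9, the DNA-binding part of the interferon-stimulated complex, had 41.1, 43.3 and 39.2 CPM in Control and 11.3, 11.4 and 13 CPM in Cu_TCPP. Irf7, itself induced by interferon, had 10, 10.5 and 9.39 CPM in the Control libraries against 1.82, 1.05 and 1.36 CPM with the material. Irf1 fell from 70 ± 3.82 to 32.9 ± 3.45 CPM, and no library of either group overlapped the other for these 3 genes (adjusted p 6.1e-10, 1.4e-08 and 3e-08). Stat5a fell from 38.6 ± 2.05 to 19.3 ± 0.765 CPM, Stat3 from 131 ± 8.62 to 85.7 ± 4.79 CPM and Stat2 from 49.2 ± 1.03 to 32.2 ± 1.36 CPM, and Stat6 had 145.8 ± 4.21 CPM in Control and 157 ± 5.32 CPM in Cu_TCPP without passing (adjusted p = 0.11). Among zinc finger regulators, where 23 rose and 13 fell of 63, Prdm10 rose by 0.84 ± 0.11 and Zbtb41 by 0.79 ± 0.08, and Ikzf2, known as HELIOS, and Bcl6, a repressor of lymphoid genes that is also found in mammary epithelium, fell (log2 changes -1.50 and -0.75).

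**Figure D3:**
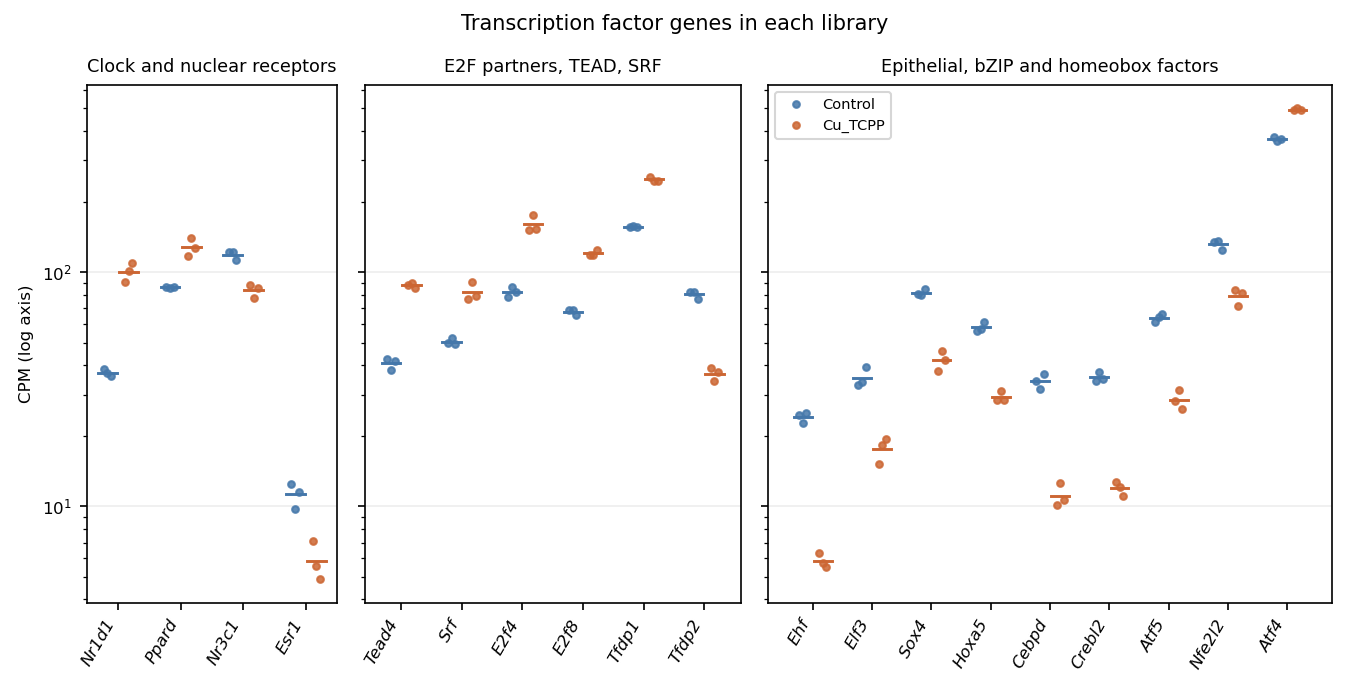
CPM on a log axis of transcription factor genes in each of the 3 Control (blue) and 3 Cu_TCPP (orange) libraries, with a short line at each group mean. The groups do not overlap for any gene shown; Tfdp1 lies higher and Tfdp2 lower with Cu_TCPP.

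Receptor tyrosine kinases outside the EGFR family had 2 risen and 12 fallen members of 23. Fgfr2 (ENSMUSG00000030849, chr7:130162451-133123350), a receptor for fibroblast growth factors that is needed in the mammary gland, had 249.6, 239 and 248 CPM in Control and 117, 136 and 118 CPM in Cu_TCPP, and fell by 0.99 log2 units (SE 0.06, adjusted p = 6.4e-09). Pdgfra, a receptor of platelet-derived growth factors that also serves as a fibroblast marker, fell from 38.3 ± 2.64 to 18.9 ± 1.73 CPM. Insr, the insulin receptor, had 115, 115 and 120.2 CPM in Control and 73.2, 70.6 and 68.7 CPM in Cu_TCPP and fell (log2 change -0.72, adjusted p = 6.3e-08). Igf2r, which clears IGF2 and sorts lysosomal enzymes, fell from 71.1 ± 3.03 to 38.5 ± 2.75 CPM. The related Igf1r had 99.4 ± 6.56 CPM in Control and 92.3 ± 0.422 CPM in Cu_TCPP and did not pass (adjusted p = 0.15, and 0.037 with library totals alone). Axl, the member with the highest level, was at 1624, 1615 and 1642 CPM in Control and 1602, 1702 and 1654 CPM in Cu_TCPP, where the groups overlap (adjusted p = 0.72). Of the fibroblast markers, 2 were tested and 2 fell, with a summed level of 39.3 to 44.8 CPM in Control and 18.2 to 22 CPM in Cu_TCPP; 5 defining markers were at 0 as given above.

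G protein-coupled receptors had 9 risen and 27 fallen members of 59. Gpr146 (ENSMUSG00000044197, chr5:139377697-139396415), a receptor linked to cholesterol metabolism in liver, had 32.8, 34.8 and 32.9 CPM in Control and 5.89, 5.71 and 5.7 CPM in Cu_TCPP, a fall by 2.54 log2 units (SE 0.10, adjusted p = 4.6e-11). The 3 treated libraries lay close together and far below Control. F2r, the thrombin receptor PAR1, fell from 144 ± 6.87 to 96.4 ± 5.41 CPM, and Bdkrb2, the bradykinin B2 receptor, from 64.7 ± 2.3 to 34.8 ± 2.58 CPM. Gprc5a, an orphan receptor induced by retinoic acid, had 77.7, 76.1 and 76.1 CPM in the Control libraries against 159, 152 and 167 CPM with the material, and rose by 1.06 ± 0.06 (adjusted p = 1.2e-09). Adhesion receptors of this superfamily had 1 risen and 5 fallen genes of 8. Adgra2, a cofactor of WNT7 signals, fell (log2 change -0.95) and Adgra3 rose by 0.25 ± 0.06. Adgrl2, the member with the highest level, had 163.4 ± 3.9 CPM in Control and 154 ± 2.92 CPM in Cu_TCPP (adjusted p = 0.19, and 0.033 with library totals alone).

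Cytokine and interleukin receptors had 4 risen and 12 fallen genes of 23, which included parts of the receptors of the interleukin 6 family. Il6ra, the binding chain for interleukin 6, had 47.6, 46.1 and 52.3 CPM in Control and 25.9, 25.7 and 26 CPM in Cu_TCPP, with all values in Cu_TCPP below all of Control (adjusted p = 1e-07). Il6st, the shared signal chain gp130, fell from 159 ± 2.17 to 113 ± 4.74 CPM, and Osmr, the receptor chain for oncostatin M, from 23.1 ± 1.09 to 15.3 ± 2.16 CPM. Il1r1, the interleukin 1 receptor, fell (log2 change -0.73 ± 0.14). Ghr, the growth hormone receptor, rose from 50.8 ± 2.85 to 69.3 ± 6.49 CPM. Of 19 members of the TNF receptor superfamily tested, 6 rose and 7 fell. Fas, the death receptor for FAS ligand, fell (log2 change -2.11 ± 0.13), Tnfrsf14 (log2 change -1.09) and Tnfrsf1b, the second TNF receptor, from 87.2 ± 3.22 to 48.8 ± 2.39 CPM. Tnfrsf1a, the first TNF receptor, had 84.8 ± 1.81 CPM in Control and 84 ± 1.78 CPM in Cu_TCPP (adjusted p = 0.84). Tnfrsf21, known as death receptor 6, had 15.4, 13 and 13.1 CPM in Control and 26.9, 30 and 25.9 CPM in Cu_TCPP and rose by 1.00 ± 0.10, and Tnfrsf12a, the receptor for TWEAK, rose from 258 ± 7.62 to 336 ± 47.8 CPM.

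Lipoprotein, scavenger and sorting receptors split, with 7 risen and 11 fallen of 26. Lrp8 (ENSMUSG00000028613, chr4:107802261-107876840), a receptor that binds reelin and apolipoprotein E, had 91.7, 90.5 and 94.2 CPM in Control and 183, 175 and 171 CPM in Cu_TCPP and rose by 0.94 ± 0.05 (adjusted p = 2.8e-09). Scarb1, the receptor for high density lipoprotein, rose from 87.8 ± 1.66 to 129 ± 5.23 CPM, and Tfrc, the transferrin receptor that brings in iron, from 516 ± 39 to 690.2 ± 83.2 CPM. Lrp1, a large receptor that clears proteases and their inhibitors from the cell surface, went the other way with 539, 542 and 588 CPM in the Control libraries against 233, 272 and 260.2 CPM with the material (adjusted p = 2e-09). Sorl1, a sorting receptor of endosomes, fell from 75.1 ± 1.89 to 42.1 ± 3.5 CPM, and Megf10, a receptor for the uptake of dead cells, also fell (log2 change -2.30 ± 0.13). Lrp5, a WNT coreceptor of the same family, had 207 ± 9.48 CPM in Control and 204 ± 22.8 CPM in Cu_TCPP and did not pass (adjusted p = 0.84).

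In the TGF-beta and BMP list 3 genes rose and 14 fell of 28. The 3 TGF-beta ligands differed in level and in outcome. Tgfb3 had 45.1, 49.7 and 49 CPM in Control and 16.2, 20.3 and 17.2 CPM in Cu_TCPP and fell by 1.42 log2 units (SE 0.09, adjusted p = 7e-09). Tgfb2 fell from 3.42 ± 0.773 to 1.24 ± 0.108 CPM, and Tgfb1 had 85.5 ± 6.21 CPM in Control and 86.2 ± 8.94 CPM in Cu_TCPP without passing (adjusted p = 0.9). All 4 latent TGF-beta binding proteins, which store the ligands in the matrix, fell: Ltbp2 from 164 ± 3.56 to 74.2 ± 2.1 CPM, Ltbp3 from 677 ± 31.9 to 386 ± 41.7 CPM, Ltbp4 from 156 ± 7.76 to 92.7 ± 8.55 CPM and Ltbp1 from 258 ± 8.37 to 197 ± 5.53 CPM. Tgfbr2, the type 2 receptor, rose from 184 ± 3.45 to 232 ± 3.06 CPM. Fstl3, which binds activins, rose from 9.07 ± 0.312 to 16.8 ± 0.227 CPM, and Gdf11, a ligand of the activin branch, by 0.67 ± 0.10.

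WNT genes had 5 risen and 9 fallen members of 23. Wnt10b, a ligand of mammary development and a mammary oncogene in mice, had 38.2, 37.3 and 37.6 CPM in Control and 11.1, 10.6 and 8.67 CPM in Cu_TCPP and fell by 1.89 log2 units (SE 0.10, adjusted p = 8.6e-10). Porcn, the enzyme that puts the lipid on all WNT ligands, fell from 14 ± 1.34 to 5.98 ± 0.766 CPM. Wnt7a had 20.5, 22.5 and 22.4 CPM in the Control libraries against 38.6, 45.9 and 41.5 CPM with the material, and rose by 0.94 ± 0.09 (adjusted p = 2.8e-07). In the NOTCH list 5 rose and 16 fell of 33. Notch1, the receptor, fell from 11.2 ± 1.21 to 6.25 ± 0.868 CPM, the ligand Jag2 from 3.25 ± 0.57 to 1.17 ± 0.326 CPM and the ligand Dll1 from 3.85 ± 0.456 to 2.15 ± 0.49 CPM. Dll4 fell from 2.44 ± 0.34 to 1.41 ± 0.426 CPM, but its adjusted p of 0.026 was 0.091 in DESeq2 and 0.057 to 0.093 in the 5 others of 15 alternatives that ended its call. These were the fit of all 9 libraries and the fits without Control replicate 1, Control replicate 2, Cu_TCPP replicate 2 or Cu_TCPP replicate 3. Dtx3, an enzyme that attaches ubiquitin, fell from 76.8 ± 3.96 to 35.8 ± 2.92 CPM. Dlk2, a noncanonical member that can restrain NOTCH, had 30, 28.7 and 31.2 CPM in Control and 60.7, 75.6 and 62.6 CPM in Cu_TCPP and rose by 1.15 ± 0.09 (adjusted p = 3.6e-08), and Nrarp, a target and brake of the pathway, by 0.65 ± 0.14.

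Guidance genes had 10 risen and 24 fallen members of 48. Plxnd1, a receptor for class 3 semaphorins, had 22.6, 25.9 and 25 CPM in Control and 4.88, 6.69 and 7.49 CPM in Cu_TCPP and fell by 1.94 log2 units (SE 0.13, adjusted p = 1.4e-08). Sema3f, a ligand of the neuropilin 2 receptor, had 203, 206.0 and 210.3 CPM in Control and 106, 112 and 112 CPM in Cu_TCPP, and Nrp2, that receptor, had 745, 741 and 744 CPM in the Control libraries against 535, 561 and 562 CPM with the material. Both fell (log2 changes -0.91 and -0.43), with libraries of the groups apart. Sema6c fell (log2 change -2.43 ± 0.21) and Sema6b rose by 0.60 ± 0.09. Epha2, an ephrin receptor often found high in carcinoma, rose from 515 ± 19.2 to 717 ± 46.9 CPM (adjusted p = 4.9e-06).

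Genes of proteins that act around plasmin stand in the list of complement and coagulation and in that of protease inhibitors, and Serpinb2, Plau and Plat were picked from them after their values were seen. Serpinb2, which encodes PAI-2, an inhibitor of plasminogen activators, was at 0 counts in 2 of 3 Control libraries and had 0.363, 0.0 and 0.0 CPM in Control and 4.07, 3.2 and 2.54 CPM in Cu_TCPP (adjusted p = 7.2e-06). Plaur, the receptor that holds urokinase on the cell surface, had 69, 68.7 and 79.4 CPM in Control and 135, 161 and 138 CPM in Cu_TCPP, a rise by 1.00 ± 0.08 (adjusted p = 5e-08). S100a10 and Anxa2 together form a plasminogen receptor. S100a10 had 463, 507 and 508 CPM in Control and 941, 885 and 935 CPM in Cu_TCPP, and Anxa2 had 958, 994 and 1033 CPM in the Control libraries against 1364, 1389.9 and 1429.7 CPM with the material. Both rose with no overlap between groups, by 0.90 ± 0.05 and 0.49 ± 0.05. Urokinase itself, Plau, had 74.4 ± 1.99 CPM in Control and 73.8 ± 4.38 CPM in Cu_TCPP and did not pass (adjusted p = 0.88), and tissue plasminogen activator, Plat, fell from 13.2 ± 1.63 to 5.18 ± 0.506 CPM. Of the whole list of serpins and other protease inhibitors, 3 rose and 10 fell of 22. Timp1, an inhibitor of matrix metalloproteases, rose from 56.7 ± 2.51 to 70 ± 6.68 CPM, an adjusted p of 0.0025 that was 0.13 in the fit of all 9 libraries, and Reck, a membrane-bound one, fell (log2 change -0.87 ± 0.12).

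Several genes of the plasmin system are known targets of AP-1, the dimer of JUN and FOS proteins, whose site was searched as TGANTCA. The 250 bases before the RefSeq start of the risen Plaur, Anxa2 and Serpinb2 are printed, with the first of 2 windows for Serpinb2, from GRCm38.p6 and 5′ to 3′ on the strand of the gene, with matches to TGANTCA on either strand in capitals.
Plaur (chr7:24462233-24462482, plus strand): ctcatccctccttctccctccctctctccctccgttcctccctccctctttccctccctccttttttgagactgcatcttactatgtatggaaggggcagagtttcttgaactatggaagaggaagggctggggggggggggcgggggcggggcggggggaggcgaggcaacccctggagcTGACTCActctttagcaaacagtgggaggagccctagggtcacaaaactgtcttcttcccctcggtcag
Anxa2 (chr9:69453433-69453682, plus strand): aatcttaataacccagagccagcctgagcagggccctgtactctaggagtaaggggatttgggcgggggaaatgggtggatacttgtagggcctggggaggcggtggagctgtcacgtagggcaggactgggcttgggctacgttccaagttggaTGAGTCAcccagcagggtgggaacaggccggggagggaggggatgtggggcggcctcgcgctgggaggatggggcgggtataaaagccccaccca
Serpinb2 (chr1:107511173-107511422, plus strand): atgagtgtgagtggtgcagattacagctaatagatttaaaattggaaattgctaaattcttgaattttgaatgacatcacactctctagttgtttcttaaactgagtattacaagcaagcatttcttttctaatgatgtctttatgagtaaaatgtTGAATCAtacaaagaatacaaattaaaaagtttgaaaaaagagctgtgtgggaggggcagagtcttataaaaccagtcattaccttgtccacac
Each holds 1 match, 69 bases before the start in Plaur, 95 bases before it in Anxa2 and 94 bases before it in Serpinb2, whose second window holds the same match 181 bases before its start. S100a10, Plau and Plat have no window among the RefSeq promoters used, so their sequences were not searched. The unchanged Plau and the fallen Plat could thus not be set beside the risen genes. Of 27025 RefSeq promoters 6.87% hold one in the same window. A match describes the letters and does not show that a factor bound there.

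C3 (ENSMUSG00000024164, chr17:57203970-57228136), the central protein of the cascade, had 484, 513 and 523 CPM in Control and 135, 152 and 150.7 CPM in Cu_TCPP and fell by 1.80 log2 units (SE 0.06, adjusted p = 1e-11). The proteases of the first step fell as well: C1s1 from 17.3 ± 2.94 to 3.43 ± 0.247 CPM and C1ra from 18.1 ± 1.03 to 5.47 ± 1.25 CPM. Masp1, a protease of the lectin branch, fell from 7.79 ± 0.546 to 4.4 ± 0.389 CPM, and Clu, a secreted inhibitor, from 104 ± 6.08 to 66.9 ± 3.09 CPM. On the coagulation side, Procr, the receptor for protein C, rose from 70.6 ± 1.65 to 122.6 ± 9.12 CPM, and F3, tissue factor, from 11.6 ± 0.155 to 15.9 ± 1.9 CPM. The combined list had 8 risen and 12 fallen members of 25. Markers of macrophages, which also make complement, summed to 44.4 to 48.5 CPM in Control and 30.7 to 34.4 CPM in Cu_TCPP, with 1 risen and 1 fallen of 3 tested and Adgre1 and Tyrobp at 0; their part in these values was not tested.

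Acute phase proteins, lipocalins, mucins and galectins had 1 risen and 17 fallen genes of 24. Cp (ENSMUSG00000003617, chr3:19957054-20009145), ceruloplasmin, the secreted copper-binding enzyme that oxidises iron, had 151.0, 140.1 and 143 CPM in Control and 30.1, 22.7 and 31.5 CPM in Cu_TCPP. All treated libraries lay far below all Control libraries, and Cp fell by 2.37 log2 units (SE 0.09, adjusted p = 1.3e-10). Lbp, the binding protein for bacterial lipopolysaccharide, fell from 5.77 ± 0.594 to 0.687 ± 0.283 CPM. Lcn2, lipocalin 2, which binds iron carriers of bacteria, fell from 317 ± 14.8 to 182 ± 20.3 CPM. Spp1, osteopontin, had 1745, 1636 and 1737 CPM in Control and 776, 726 and 842 CPM in Cu_TCPP and fell by 1.13 log2 units (SE 0.06, adjusted p = 1.1e-09); a predicted gene overlaps 18.8% of its exons. Lgals3, galectin 3, fell from 494 ± 38.2 to 307 ± 33 CPM, and Olfm1, olfactomedin 1, from 92.4 ± 6.08 to 33.7 ± 3.94 CPM. Of the membrane mucins, which were low, Muc1 fell from 1.28 ± 0.35 to 0.262 ± 0.187 CPM and Muc4 from 3.51 ± 0.267 to 0.362 ± 0.17 CPM. Lgals1, the member with the highest level, had 4937 ± 215 CPM in Control and 5284 ± 279 CPM in Cu_TCPP and did not pass (adjusted p = 0.16, and 0.025 without Cu_TCPP replicate 2). Apod, the risen member, had an adjusted p of 0.013 that was 0.059 without Control replicate 2, 0.054 without Cu_TCPP replicate 1 and 0.052 in the fit of all 9 libraries.

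All 9 tested genes of the IGF-binding proteins and CCN family passed, 2 risen and 7 fallen. Ctgf (CCN2), a matrix-bound growth regulator, had 44.5, 42.7 and 43.5 CPM in Control and 112, 113 and 115 CPM in Cu_TCPP and rose by 1.38 ± 0.06 (adjusted p = 1.2e-10). Cyr61 (CCN1) rose from 286 ± 10.7 to 382 ± 30.6 CPM. Wisp1 (CCN4), a WNT-induced member, had 47.9, 45.8 and 43.3 CPM in the Control libraries against 17.7, 17.5 and 15.9 CPM with the material, and fell by 1.42 log2 units (SE 0.08, adjusted p = 2.6e-09). Nov (CCN3) was low and fell from 1.12 ± 0.334 to 0.101 ± 0.0343 CPM, so that members of 1 family moved both ways. Igfbp7 fell from 132 ± 4.53 to 57.7 ± 2.71 CPM and Igfbp4 from 1056 ± 43.1 to 857 ± 86.5 CPM.

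The proteoglycans and matrix glycoproteins had 6 risen and 17 fallen members of 36. Tnxb, tenascin X, had 32.5, 29 and 32.6 CPM in Control and 5.01, 5.41 and 6.5 CPM in Cu_TCPP and fell by 2.47 log2 units (SE 0.11, adjusted p = 3e-10). Thbs1, thrombospondin 1, and Fn1, fibronectin, fell (log2 changes -2.33 and -1.14). Fbln2, fibulin 2, rose from 449 ± 15.3 to 606 ± 33.5 CPM and Sdc1, syndecan 1, from 111 ± 6.28 to 160.5 ± 16.7 CPM. The fibroblast markers given with the receptor kinases fell alongside these matrix genes, and their part was not tested.

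Growth factors outside the EGF and CSF families had 13 risen and 25 fallen genes of 50. Pgf, placental growth factor, had 11.1, 10.8 and 11.6 CPM in Control and 27.7, 32.4 and 29.7 CPM in Cu_TCPP (adjusted p = 1.1e-08), and Stc1, the peptide hormone stanniocalcin 1, had 10.5, 11.2 and 9.15 CPM in Control and 27.3, 26.3 and 24.8 CPM in Cu_TCPP (adjusted p = 4.3e-08). Apln, the vascular peptide apelin, had 45.4, 42.1 and 46.8 CPM in Control and 99, 105 and 101 CPM in Cu_TCPP (adjusted p = 1e-09). Adm, the vasodilator adrenomedullin, rose from 3.62 ± 0.368 to 8.81 ± 0.52 CPM. For each of these 4 genes the lowest treated library was above the highest Control library, with rises of 1.43, 1.34, 1.19 and 1.28. Of the GDNF family ligands, Artn, artemin, fell from 35.2 ± 2.8 to 13.3 ± 0.48 CPM and Gdnf from 11 ± 1.05 to 4.62 ± 0.745 CPM. Vegfc, which drives lymphatic growth, fell from 18.7 ± 1.61 to 9.8 ± 0.55 CPM, and Pdgfb from 47.6 ± 2.3 to 28.1 ± 1.26 CPM. Grn, progranulin, a secreted and lysosomal protein, had 310.4, 315 and 341 CPM in Control and 132, 148 and 151.1 CPM in Cu_TCPP and fell by 1.17 log2 units (SE 0.06, adjusted p = 1.1e-09). Hdgf, the member with the highest level, had 600.2 ± 13.2 CPM in Control and 675 ± 47.6 CPM in Cu_TCPP and an adjusted p of 0.019 that was 0.077 without Control replicate 1, 0.069 without Control replicate 2, 0.097 with library totals alone and 0.27 in the fit of all 9 libraries.

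**Figure D4:**
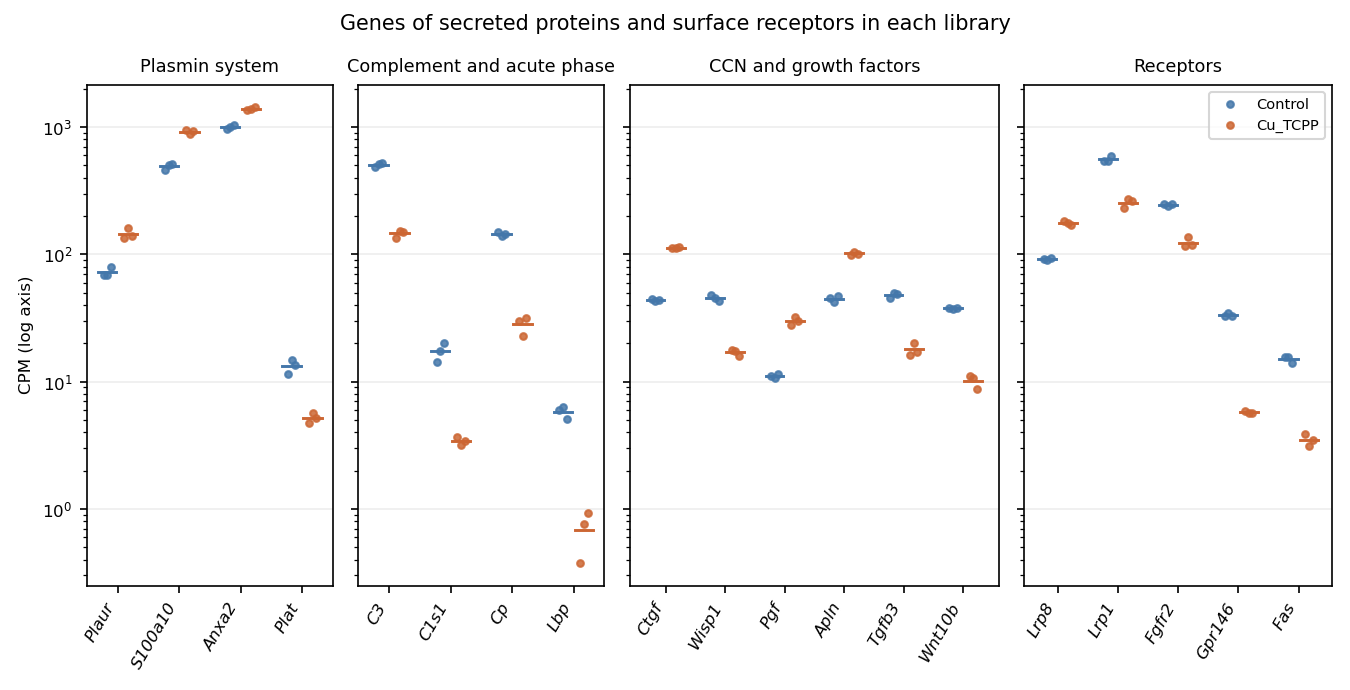
CPM on a log axis of genes of the plasmin system, complement and acute phase proteins, CCN and growth factors, and surface receptors in each of the 3 Control (blue) and 3 Cu_TCPP (orange) libraries, with a line at each group mean. The groups do not overlap for any gene shown; Plaur, S100a10, Anxa2, Ctgf, Pgf and Apln lie higher and C3, Cp, Gpr146 and Fas lower with Cu_TCPP.

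Metal carriers of the SLC families were the transporter list with the highest share of risen genes, 13 risen and 3 fallen of 24. Slc30a1 (ENSMUSG00000037434, chr1:191906767-191913247), the zinc exporter ZNT1 of the plasma membrane, had 8.35, 10 and 7.7 CPM in Control and 30.9, 25.6 and 27.4 CPM in Cu_TCPP (adjusted p = 1.5e-08). Slc39a10, the zinc importer ZIP10, had 46.3, 45.8 and 39.3 CPM in the Control libraries against 119, 111 and 120.1 CPM with the material, and rose by 1.42 ± 0.07 (adjusted p = 5.8e-10). An exporter and an importer of zinc were thus both higher in every treated library. Slc39a13, the ZIP13 carrier of the Golgi region, rose from 58.5 ± 2.55 to 98.5 ± 5.45 CPM. The fallen members were Slc40a1, Slc31a2 and Slc30a4. Slc40a1, the iron exporter ferroportin, had 1.88, 2.07 and 1.93 CPM in Control and 0.438, 0.175 and 0.557 CPM in Cu_TCPP, low in every library and lowest in the treated ones. Slc31a2, the CTR2 protein of copper handling, had 26.9, 27 and 28 CPM in Control and 12.6, 15.3 and 14.7 CPM in Cu_TCPP and fell by 0.94 log2 units (SE 0.09, adjusted p = 8.2e-07). Its relative Slc31a1, the CTR1 copper importer, had 84.6 ± 3.2 CPM in Control and 87.7 ± 6.81 CPM in Cu_TCPP and did not pass (adjusted p = 0.53). Slc30a4, a zinc carrier of vesicles, had 208, 199.9 and 196 CPM in Control and 149, 130.2 and 148 CPM in Cu_TCPP and fell (log2 change -0.50, adjusted p = 6.1e-06).

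Zinc-sensing MTF-1 binds metal response elements, with the core TGCRCNC, which was searched as TGCGCNC and as TGCACNC on both strands. The 250 bases before the start of the risen Slc30a1 and the fallen Slc30a4 and Slc31a2 are printed. They are from RefSeq on GRCm38.p6, 5′ to 3′ on the strand of the gene, with whole matches in capitals.
Slc30a1 (chr1:191906531-191906780, plus strand): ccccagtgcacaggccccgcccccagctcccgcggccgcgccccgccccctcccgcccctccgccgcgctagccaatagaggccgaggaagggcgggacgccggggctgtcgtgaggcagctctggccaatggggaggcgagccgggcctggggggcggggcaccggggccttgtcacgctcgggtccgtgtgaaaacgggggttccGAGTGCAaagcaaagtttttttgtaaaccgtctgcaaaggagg
Slc30a4 (chr2:122702664-122702913, minus strand): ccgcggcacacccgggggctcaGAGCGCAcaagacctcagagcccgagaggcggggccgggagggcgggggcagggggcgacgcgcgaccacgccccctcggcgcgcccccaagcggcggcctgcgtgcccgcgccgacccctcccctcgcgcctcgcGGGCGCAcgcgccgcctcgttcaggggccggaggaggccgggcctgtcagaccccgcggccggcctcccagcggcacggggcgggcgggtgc
Slc31a2 (chr4:62286179-62286428, plus strand): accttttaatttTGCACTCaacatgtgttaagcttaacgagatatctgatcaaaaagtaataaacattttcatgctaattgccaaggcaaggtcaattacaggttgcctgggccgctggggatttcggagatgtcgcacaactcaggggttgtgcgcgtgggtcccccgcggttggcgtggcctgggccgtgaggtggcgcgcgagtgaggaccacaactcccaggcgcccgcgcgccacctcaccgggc
In this window Slc30a1 holds 1 match to TGCACNC, 43 bases before the start, and another match, to TGCGCNC, starts 30 bases after it. Slc30a4 holds 2 matches to TGCGCNC, 228 and 92 bases before the start, and a match to TGCACNC that begins 6 bases before the start and runs past it, left in lower case. Slc31a2 holds 1 match to TGCACNC, 238 bases before it. The risen Slc30a1 and the fallen Slc30a4 and Slc31a2 thus had matches, and the 2 windows of the risen Slc39a10 had 0. Windows of the other metal carriers were not examined singly, so this does not describe the list. A match describes the letters and does not show that MTF-1 bound there, and its part in these changes was not tested. Among 27025 RefSeq promoters 12.6% held TGCGCNC and 10.2% TGCACNC in the same window.

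Carriers of nutrients rose and fell in near equal number: the organic solute list had 22 risen (27.5%) and 26 fallen (32.5%) genes of 80. Slc19a1, Slc19a2, Slc29a2, Slc2a1, Slc16a1 and Slc48a1 were picked after their values were seen and all rose. The genes named here thus do not mirror the balance of the list. Mfsd2a, a carrier of lysolipids with docosahexaenoic acid, had 6.78, 6.57 and 5.66 CPM in Control and 20.3, 19.4 and 17.8 CPM in Cu_TCPP and rose by 1.60 ± 0.12 (adjusted p = 2.8e-08). The reduced folate carrier Slc19a1 had 38.7, 34.2 and 35 CPM in Control and 71.6, 74 and 70.3 CPM in Cu_TCPP, and the thiamine carrier Slc19a2 had 29.2, 29.5 and 28.5 CPM in the Control libraries against 56.2, 52.8 and 58.3 CPM with the material. They rose by 1.00 ± 0.07 and 0.94 ± 0.07, with the groups apart. The mitochondrial folate carrier Slc25a32 rose from 32.8 ± 2.15 to 53.5 ± 2.95 CPM, and the nucleoside carrier Slc29a2 from 12.2 ± 1.53 to 26.2 ± 3.65 CPM. Slc2a1, the glucose carrier GLUT1, had 170.4, 175 and 194 CPM in Control and 244, 287 and 272 CPM in Cu_TCPP (adjusted p = 3.8e-06), and Slc16a1, the lactate carrier MCT1, rose from 198 ± 4.98 to 293 ± 19.2 CPM. Slc48a1, which moves heme out of lysosomes, rose from 96.5 ± 1.58 to 160.4 ± 9.13 CPM. Slc43a2, the amino acid carrier LAT4, had 50.9, 46 and 55.5 CPM in Control and 14.3, 13.7 and 15.2 CPM in Cu_TCPP and fell by 1.82 log2 units (SE 0.09, adjusted p = 5.8e-10), and the choline carrier relative Slc44a3 fell (log2 change -1.56). Slc16a6 rose by 1.55 ± 0.12, but 21.5% of its exons overlap Amz2.

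Amino acid carriers had 8 risen and 6 fallen members of 19, a majority that turned with library totals in place of the TMM factors. Slc1a5, the glutamine carrier ASCT2, rose from 186 ± 4.96 to 284 ± 21.5 CPM, and Slc7a6 from 61.7 ± 2.34 to 105 ± 4.97 CPM. Its relative Slc7a7 fell from 6.91 ± 0.205 to 2.37 ± 0.27 CPM, and Slc38a7, a glutamine carrier of lysosomes, from 31.2 ± 0.987 to 17.9 ± 1.3 CPM. Slc7a5, the member with the highest level, had 419 ± 6.67 CPM in Control and 475 ± 26 CPM in Cu_TCPP and an adjusted p of 0.0097 that was 0.28 in the fit of all 9 libraries and 0.055 with library totals alone. In the nucleotide sugar list, whose carriers feed sugars to the Golgi, 8 rose and 1 fell of 22. Slc35b1, which brings ATP into the endoplasmic reticulum, had 12.6, 16.2 and 16 CPM in Control and 28.8, 29 and 28.5 CPM in Cu_TCPP, and Slc35c1, the GDP-fucose carrier, had 12.5, 14 and 11.8 CPM in the Control libraries against 23.7, 24.4 and 24.4 CPM with the material (adjusted p 1.4e-06 and 1.1e-06). Slc35e1 rose from 50.2 ± 2.31 to 87.3 ± 3.47 CPM and Slc35d1 from 16.9 ± 0.829 to 22.7 ± 1.29 CPM. Mitochondrial carriers had 9 risen (20.5%) and 14 fallen (31.8%) of 44, against 27.4% and 27% of all genes tested. Among them Slc25a5, an ATP and ADP exchanger, rose from 401 ± 16.4 to 574 ± 23.1 CPM while its relative Slc25a4 had 444 ± 19.9 CPM in Control and 459 ± 45.8 CPM in Cu_TCPP (adjusted p = 0.55). Slc25a3, the phosphate carrier and the highest of the list, had 702 ± 13.3 CPM in Control and 763 ± 29.7 CPM in Cu_TCPP and did not pass (adjusted p = 0.056). It passed in 6 of 15 alternatives, with an adjusted p of 0.034 in DESeq2, 0.033 with no filter, 0.038 in both limma fits, 0.029 with the replicate block and 0.0043 without Cu_TCPP replicate 2.

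In all 3 lists of carriers driven by ATP more genes fell than rose, by a small margin in the ABC and P-type lists. ABC proteins had 8 risen (32%) and 11 fallen (44%) genes of 25, against 27.4% risen and 27% fallen of all genes tested. Abcc3, the MRP3 exporter of conjugated anions, had 87.3, 84.9 and 93.9 CPM in Control and 25.8, 27 and 29.8 CPM in Cu_TCPP and fell by 1.69 log2 units (SE 0.07, adjusted p = 1.5e-10). Tap2, a subunit of the transporter that loads peptides for MHC class 1, had 41.1, 45.3 and 44.6 CPM in Control and 17.7, 22.9 and 18.9 CPM in Cu_TCPP and fell by 1.14 log2 units (adjusted p = 1.3e-07). Its partner Tap1 fell from 39 ± 2.33 to 18.1 ± 2.19 CPM (adjusted p = 1.7e-07), which did not pass in the fit of all 9 libraries (adjusted p = 0.067). Abce1 and Abcf2, which work in ribosome recycling and assembly and move no solute, rose, Abce1 from 275.9 ± 27.7 to 473 ± 39.6 CPM and Abcf2 from 119 ± 2.25 to 199.8 ± 5.01 CPM. Abcg2, the BCRP exporter that also carries porphyrins, was low and rose from 2.74 ± 0.495 to 4.91 ± 0.774 CPM (adjusted p = 0.0026). The proton pump of lysosomes had 1 risen and 9 fallen subunits of 19. Tcirg1, a subunit of its membrane part, had 177, 187 and 182 CPM in the Control libraries against 93.4, 102 and 93.9 CPM with the material, and Atp6v0d1 fell from 54.7 ± 2.25 to 34.8 ± 3.16 CPM. Atp6v0a2, which takes the place of Tcirg1 in other pumps, rose from 27.9 ± 1.58 to 38.2 ± 1.48 CPM, and Atp6v1a, the catalytic subunit, had 195 ± 4.74 CPM in Control and 180.1 ± 4.71 CPM in Cu_TCPP and did not pass (adjusted p = 0.078, and 0.012 with library totals alone). The P-type pumps had 8 risen (30.8%) and 12 fallen (46.2%) genes of 26. Atp2a2, the SERCA2 calcium pump of the endoplasmic reticulum, had 341, 341 and 341 CPM in Control and 483, 505 and 498 CPM in Cu_TCPP and rose by 0.54 ± 0.05 (adjusted p = 2.6e-07). Atp13a2, a polyamine carrier of lysosomes, fell from 46.6 ± 1.81 to 29.6 ± 3.44 CPM.

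Calcium, TRP, purinergic and mechanosensitive channels had 3 risen and 23 fallen members of 39. Itpr2, a receptor for inositol trisphosphate that releases calcium from stores, had 42, 42.4 and 42.5 CPM in Control and 14.7, 17.6 and 17 CPM in Cu_TCPP and fell by 1.36 log2 units (SE 0.09, adjusted p = 5.8e-09). Itpr3, the member with the highest level, fell from 501 ± 14.7 to 349 ± 25.1 CPM. Trpm6, a magnesium channel, had 16.3, 16.7 and 15.9 CPM in Control and 3.76, 4.31 and 3.72 CPM in Cu_TCPP and fell (log2 change -2.05 ± 0.12), and Cnnm2, a magnesium-handling protein of the inorganic ion carriers, also fell (log2 change -2.06 ± 0.15). Trpm4, a cation channel opened by calcium, fell from 46.6 ± 1.37 to 23.6 ± 0.674 CPM, and Trpv2 fell too (log2 change -1.51 ± 0.35). The store sensor Stim1 fell from 48.5 ± 1.54 to 41.3 ± 0.609 CPM, and Orai1, the channel it opens, rose from 7.91 ± 0.381 to 11.9 ± 0.624 CPM.

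Sodium channels, connexins, pannexins and aquaporins formed a list with 5 risen and 7 fallen genes of 17. Scn3a, a voltage-gated sodium channel, had 26.5, 29.3 and 27 CPM in Control and 4.76, 3.9 and 2.6 CPM in Cu_TCPP, the widest fall among the named channels, by 2.88 log2 units (SE 0.15, adjusted p = 8.5e-10). Of the water channels in it, Aqp3 fell from 7.02 ± 0.897 to 1.29 ± 0.474 CPM, Aqp5 from 34.1 ± 3.7 to 10.6 ± 1.51 CPM and Aqp1 from 66.9 ± 3.08 to 33 ± 3.13 CPM. Of the connexins, which form gap junctions, Gja1 rose from 199 ± 3.51 to 239.9 ± 5.71 CPM. Among potassium channels 4 rose (25%) and 5 fell (31.25%) of 16, near the 27.4% and 27% of all genes tested. Kcnk2, a stretch-gated channel, rose from 21.9 ± 2.79 to 41 ± 0.851 CPM, Kcnn4, opened by calcium, from 67.4 ± 6.6 to 101 ± 12.9 CPM, and Kcnk5 fell from 15.9 ± 0.245 to 10 ± 0.646 CPM. Of the chloride channels 6 rose and 12 fell of 28, with Ttyh3 fallen from 53.5 ± 3.21 to 26.4 ± 4.88 CPM.

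**Figure D5:**
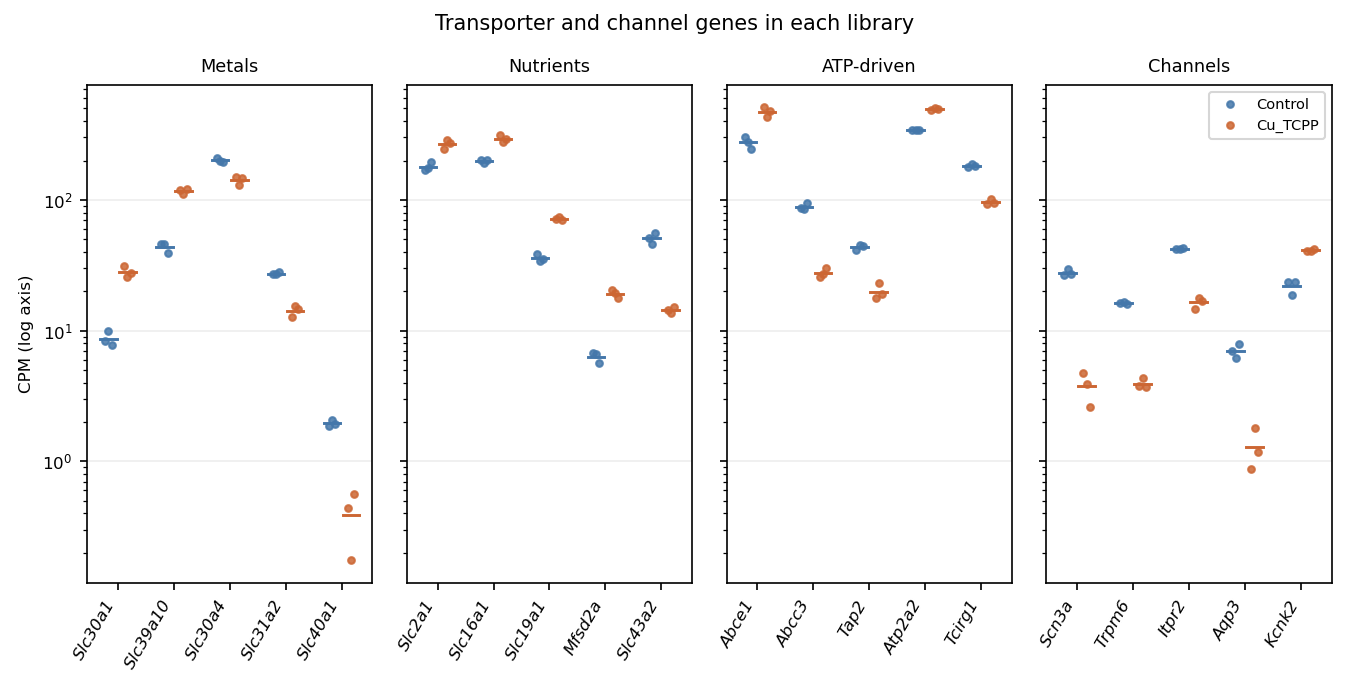
CPM on a log axis of transporter and channel genes in each of the 3 Control (blue) and 3 Cu_TCPP (orange) libraries, with a line at each group mean. The groups do not overlap for any gene shown; Slc30a1 and Slc39a10 lie higher and Scn3a, Trpm6 and Aqp3 lower with Cu_TCPP.

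RGS proteins and G protein subunits had 10 risen (29.4%) and 8 fallen (23.5%) genes of 34, near the 27.4% and 27% of all genes tested. This majority turned with library totals in place of the TMM factors and in the fit of all 9 libraries. Rgs16, which turns off G proteins, had 26, 23 and 26.5 CPM in Control and 61.1, 64.8 and 60.4 CPM in Cu_TCPP and rose by 1.30 ± 0.07 (adjusted p = 2.6e-09). Enzymes of cyclic nucleotides had 8 risen and 14 fallen of 33. The phosphodiesterases Pde4b and Pde1b, which break down cyclic AMP and, for Pde1b, cyclic GMP, fell, Pde4b from 18.9 ± 0.873 to 7.9 ± 0.782 CPM and Pde1b from 7.42 ± 0.51 to 2.15 ± 0.0497 CPM. Prkar2a, a regulatory subunit of protein kinase A, had 152, 149.9 and 155 CPM in Control and 263, 246 and 249 CPM in Cu_TCPP (adjusted p = 2.2e-08), while the more counted Prkar1a had 299 ± 7.05 CPM in Control and 308 ± 6.51 CPM in Cu_TCPP (adjusted p = 0.47).

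The list of eicosanoid and phospholipase A2 enzymes had 11 risen (23.9%) and 15 fallen (32.6%) genes of 46, against 27.4% and 27% of all genes tested. Ptgs1, which encodes the constitutive cyclooxygenase COX-1, had 160.4, 161 and 167 CPM in Control and 67.4, 73.4 and 75.1 CPM in Cu_TCPP and fell by 1.18 log2 units (SE 0.06, adjusted p = 5.8e-10). Ptgs2, which encodes the inducible COX-2, had 205.5, 183 and 182 CPM in Control and 203, 176 and 183 CPM in Cu_TCPP, with overlapping groups, and did not pass (adjusted p = 0.79). Mgst2, which can conjugate glutathione in the leukotriene route, fell from 33.4 ± 2.82 to 13 ± 1.27 CPM. Ptges3, a prostaglandin E synthase that is also the HSP90 cochaperone p23, rose from 163.4 ± 7.6 to 268 ± 25.8 CPM, and Elovl6, which lengthens fatty acids, from 76 ± 5.17 to 122 ± 7.35 CPM. The prostaglandin carrier Slco2a1 rose from 273 ± 6.78 to 371 ± 7.32 CPM.

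Adhesion proteins of the immunoglobulin type and tetraspanins had 5 risen and 28 fallen members of 54. Vsir (ENSMUSG00000020101, chr10:60346851-60372684), the immune checkpoint ligand VISTA, had 37.5, 42.1 and 44.3 CPM in Control and 7.45, 8.62 and 9.85 CPM in Cu_TCPP and fell by 2.26 log2 units (SE 0.11, adjusted p = 4.4e-10). Icam1, which binds leukocyte integrins and is induced by cytokines, had 12.3, 14.1 and 13.7 CPM in the Control libraries against 4.19, 3.2 and 4.09 CPM with the material (adjusted p = 6.8e-08). Vcam1, with a like role on endothelium, had 40.2 ± 1.52 CPM in Control and 38.7 ± 2.29 CPM in Cu_TCPP and did not pass (adjusted p = 0.54). Cd47, the signal that holds back phagocytes, had 553, 539 and 526 CPM in Control and 361, 325 and 351 CPM in Cu_TCPP and fell by 0.64 log2 units (SE 0.05, adjusted p = 1.3e-07). Cd24a, a glycoprotein of luminal cells, rose from 57.9 ± 1.69 to 81.9 ± 3.13 CPM and Nectin3 from 29.5 ± 1.61 to 43.2 ± 0.52 CPM. Cadherins had 2 risen and 8 fallen of 21, where Dsg2, a desmosomal cadherin, fell from 75.4 ± 4.81 to 53.1 ± 0.453 CPM and Fat1 rose from 165 ± 3.03 to 192 ± 2.59 CPM.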

How the data were processed

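The authors deposited read counts per gene in whole numbers, FPKM values (read counts scaled by gene length and library size), and their own comparison with log2 fold changes and p-values, per the file headers. The submitters' processing notes name mm10, Bowtie 0.12.9, Cufflinks 2.1.1 and HTSeq, with no role for each. The counting annotation is not stated in the sources used here. Of the gene IDs, 54409 were found in GENCODE M21, 98.3% with the same coordinates as deposited.

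Counts of the 3 Cu_TCPP and 3 Control libraries were fitted alone in edgeR 4.0.16 (R 4.3.3) after filterByExpr and TMM scaling, with robust quasi-likelihood tests and Benjamini-Hochberg adjustment over 13576 genes at 0.05. The biological coefficient of variation was 6.58%, and no pair of replicates held identical values. CPM used TMM-scaled totals. On simulated counts at these means and depths, with 13576 genes simulated, 97% of 100 genes changed 2-fold and 86% of 100 changed 1.5-fold were recovered, with 8 false calls among 191. The changed genes were drawn only from those above a floor on the expected count, so these rates do not cover genes of low counts. Far fewer genes were changed in the simulation than were called in the data. The authors' deposited table calls 6560 genes at its adjusted p-value of 0.05, and 6431 of them are called here in the same direction.

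The alternatives were scaling by RLE factors or by library totals alone, testing every gene with no filter, a filter of at least 1 CPM in 3 libraries, DESeq2 1.42.0, all 9 libraries, the replicate number as a block, limma 3.58.1 on log2(FPKM + 1) and log2(FPKM + 0.1), and each library left out. Deviations of the same-numbered libraries from their group means correlated at 0.179, 0.0296 and 0.0462. For libraries with different numbers the correlations ran from -0.163 to 0.115. These values do not settle whether replicate numbers pair the libraries, and the main fit did not use the number.

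The 44 gene lists and the rules were chosen with earlier results of these data known. In each list the rule named the 2 risen and the 2 fallen genes of largest change, among called members with a mean of at least 5 CPM in the higher group and no overlap between libraries, and the tested member with the highest mean CPM, 210 genes in all. A further 96 genes were chosen after their values were seen: Abcg2, Adm, Apln, Aqp1, Aqp5, Atf4, Atf5, Bcl6, Bdkrb2, C1ra, Cd47, Clu, Crebl2, Dll1, Dll4, E2f7, E2f8, Esr1, Etv1, Etv4, F3, Grn, Hoxa2, Hoxa3, Hoxa5, Hoxa7, Icam1, Id2, Igf1r, Igf2r, Il1r1, Insr, Irf1, Irf7, Irf9, Jag2, Kcnn4, Lcn2, Lgals3, Lrp1, Ltbp1, Ltbp4, Masp1, Muc1, Muc4, Mybl2, Nfe2l2, Notch1, Nov, Nr1d2, Nr2f1, Nr3c1, Olfm1, Osmr, Pdgfb, Plat, Plau, Procr, Ptgs2, Scarb1, Sema3f, Serpinb2, Slc16a1, Slc19a1, Slc19a2, Slc25a4, Slc25a5, Slc29a2, Slc2a1, Slc31a1, Slc35d1, Slc35e1, Slc39a13, Slc40a1, Slc48a1, Sorl1, Spp1, Srf, Stat2, Stat3, Stat5a, Stat6, Stim1, Tap1, Tfdp1, Tgfb1, Tgfb2, Tgfbr2, Thra, Tnfrsf14, Tnfrsf1a, Trpm4, Trpv2, Vcam1, Vdr, Vegfc. Some genes and 1 list that the rule covers are not reported here. Promoter windows are from RefSeq on GRCm38.p6, with 149 of the 210 named genes matched. Tables and figures used Python 3.11.15, pandas 2.3.3, numpy 2.4.6 and matplotlib 3.10.9.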

Additional observations from a re-analysis of the deposited data

How the results depend on the processing

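The count of genes passing the test, 7381, ran from 5617 in the fit of all 9 libraries to 7855 over the 15 alternatives. Leaving out 1 library gave 6242 (without Control replicate 2) to 7855 (without Cu_TCPP replicate 2). With the replicate block it was 7610, and of the 306 genes picked by the rule or later the block ended the call of none and added that of 3 (Slc25a3, Slc35e4 and Wfdc2). The 1154 genes changed by at least 1 log2 unit became 324 with limma on FPKM + 1, where the added 1 shrinks the folds of low genes. Rises made up 50.4% of calls and 42.6% with library totals alone, where the median of all genes was at -0.06 on the log2 scale.

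Of the 306 picked genes 283 passed, of which 260 did so in all 15 alternatives, 23 were lost in at least 1 and none reversed. Of the 23 that did not pass, 11 passed in at least 1. The side with more calls turned from risen to fallen for the ETS factors and RGS proteins (all 9 libraries, library totals alone). It also turned for amino acid carriers (library totals alone). More falls than rises no longer held for organic solute carriers (limma on FPKM + 1, without Cu_TCPP replicate 1 or 3). The same applied to TNF receptors and inorganic ion carriers (no filter). It also applied to potassium channels (DESeq2, no filter, and 5 of the 6 fits that leave out a library). For lists with more falls in the main fit a tie counted as a change, while for lists with more rises it did not. The cause of these changes was not tested. Genes in the lowest counts rest on few reads per library, and counting error limits them most.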
